A study of Mus musculus and Homo sapiens with 56 samples.

Results

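Double-stranded RNA sensing and interferon genes were represented by 9 genes: Ifih1, Ddx58, Mavs, Adar, Eif2ak2, Oas1a, Xaf1, Bst2 and Irf3. They were taken by name from the 52459 genes of the RNA-seq count table, and all 9 were found. The series studies N6-methyladenosine (m6A), a mark on RNA, and the histone mark H3K9me2. Here the question was whether cells with the METTL3 substitution D395A differ from wild-type cells in the RNA of these genes, and which of the genes carry m6A peaks. Values came from D395A mouse embryonic stem cells (2 RNA-seq libraries and 1 m6A peak list) and from WT cells (2 RNA-seq libraries and 1 m6A peak list).

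Both groups were untreated E14TG2a cells, a mouse embryonic stem cell line, grown in N2B27 medium with LIF and with inhibitors of MEK (PD0325901) and GSK3β (CHIR99021). D395A replaces an aspartate in the active site of METTL3, which deposits most of the m6A found on mRNA. The labels do not say how the D395A line was made, whether it is 1 clone, or whether replicate libraries came from separate cultures, so the p-values measure only the spread between these libraries. RNA-seq was made from RNA depleted of ribosomal RNA, and m6A was immunoprecipitated from chromatin RNA.

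Long double-stranded RNA in the cytosol is bound by the helicases RIG-I (encoded by Ddx58) and MDA5 (Ifih1). Both signal through the mitochondrial adaptor MAVS to the transcription factor IRF3, which switches on interferon genes. Secreted interferon then acts through its receptors and STAT proteins to raise interferon-stimulated genes, among them the other members. ADAR edits adenosine to inosine in double-stranded RNA and keeps a cell's own RNA from being sensed, and embryonic stem cells are known for a weak interferon response.

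The interferon-stimulated response element, bound by IRF and STAT complexes, is built from repeats of GAAA. RefSeq promoter windows (GRCm38.p6, the same coordinates as mm10) of 250 bases before to 50 bases after each annotated start were searched on both strands for GAAANNGAAA and for the closer spacing GAAANGAAA. These letters were chosen after the promoters had been seen. All 9 genes matched the RefSeq table, and 7 held at least 1 match, against 7.27% of 27025 genes in that table. GAAANNGAAA alone was in 5 of the 9 and in 3.99% of all genes. Stretches of 60 bases from 6 of the 7 are shown because they let the spacing and place of the matches be compared between members that fell (Xaf1, Oas1a, Eif2ak2) and members that were not called or not tested (Ddx58, Adar, Ifih1), with matches in capitals and each strand read 5′ to 3′.
Xaf1: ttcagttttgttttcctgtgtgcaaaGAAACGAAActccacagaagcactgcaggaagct
Oas1a: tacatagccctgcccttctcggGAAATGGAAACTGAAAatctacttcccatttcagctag
Eif2ak2: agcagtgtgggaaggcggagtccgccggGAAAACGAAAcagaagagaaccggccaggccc
Ddx58: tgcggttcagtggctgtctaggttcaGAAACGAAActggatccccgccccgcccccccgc
Adar: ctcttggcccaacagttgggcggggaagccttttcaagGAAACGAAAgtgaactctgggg
Ifih1: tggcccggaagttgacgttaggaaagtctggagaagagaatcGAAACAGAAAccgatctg

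The stretch of Xaf1 is chr11:72301613-72301672 on the plus strand and that of Adar, from the last of its 3 windows, is chr3:89730708-89730767 on the plus strand. The others lie on the minus strand. They are chr5:120907508-120907567 for Oas1a, chr17:78882523-78882582 for Eif2ak2, chr4:40239852-40239911 for Ddx58 and chr2:62646206-62646265 for Ifih1. Oas1a and Bst2 each hold a pair of overlapping GAAANNGAAA matches. With the first transcribed base as 0, these begin at -20 and -14 in Oas1a and at -130 and -124 in Bst2. Ddx58 has a further match on the other strand, from 2 to 11. The windows of Mavs and Irf3 hold neither set of letters. In the count table the genes themselves span chr2:62595798-62646255 (Ifih1), chr4:40203773-40239828 (Ddx58), chr2:131234063-131248025 (Mavs), chr7:44997648-45002848 (Irf3) and chr3:89715022-89753446 (Adar). Eif2ak2 spans chr17:78852564-78882573, Oas1a chr5:120896256-120907521, Xaf1 chr11:72301629-72313733 and Bst2 chr8:71534255-71537456.

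In D395A cells the antiviral genes Xaf1 and Oas1a fell 15.1-fold and 9.17-fold and Eif2ak2 fell 1.54-fold, while Bst2 rose 4.29-fold and Irf3 1.6-fold. Mavs, Adar and Ddx58 did not pass the test, and Ifih1 had too few counts to enter it. The change was therefore in both directions: of the 8 genes tested, 2 rose, 3 fell and 3 were not called (edgeR quasi-likelihood test, Benjamini-Hochberg adjusted p below 0.05 over all 17778 tested genes). In the same test 36.8% of all tested genes were higher in D395A, 34.3% were lower and 28.9% were not called. Both directions were thus common among all genes, and going both ways does not set these 8 genes apart from the rest. Among the 5 tested members with no exonic base shared with the opposite strand, 1 rose and 2 fell, beside 32.3% higher and 37.1% lower of the 12377 such genes. The median log2 fold change (D395A over WT) of the 8 genes was -0.12, against 0.00288 over all tested genes. With a further threshold of at least 2-fold, 1 member was higher and 2 were lower, beside 20% and 11.9% of all tested genes. Levels are in CPM, library-scaled counts with TMM factors, and mean ± SD is over n = 2 libraries per group.

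**Figure D1:**
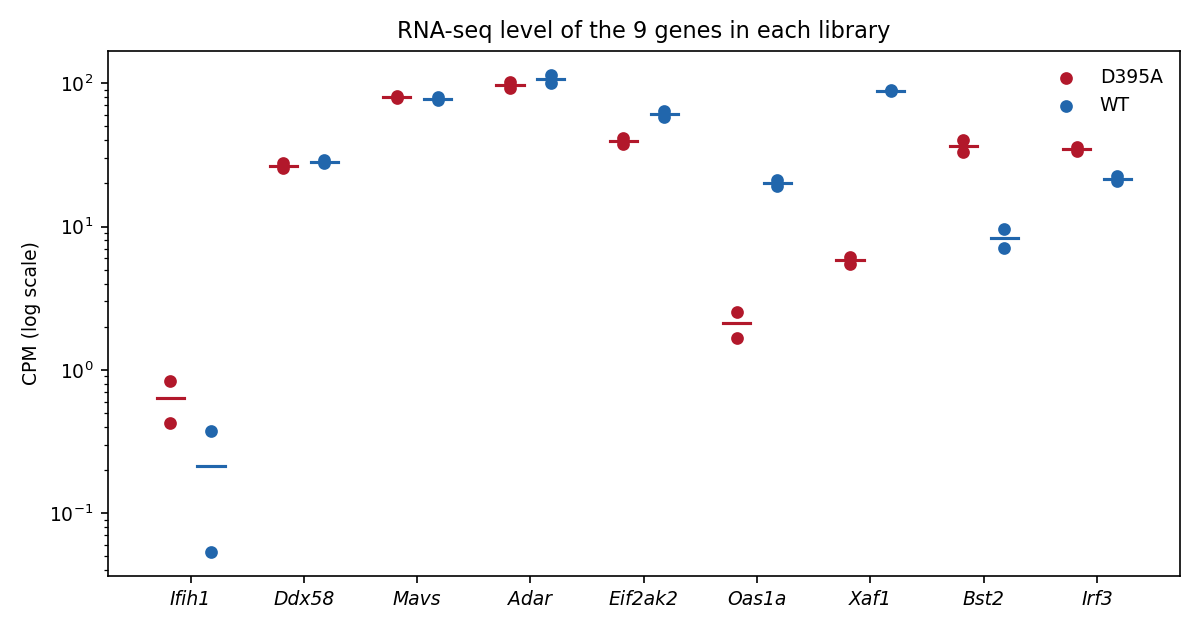
Level of the 9 genes in CPM on a log scale, with 1 point per RNA-seq library and a bar at the group mean, D395A in red and WT in blue. Xaf1 and Oas1a stand lower in both D395A libraries and Bst2 and Irf3 higher, while the points of Mavs and Adar overlap between the groups.

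Of the genes of the sensors RIG-I and MDA5, Ddx58 was not called and Ifih1 did not enter the test in the fit of all 4 libraries. Ddx58 was measured at 25.7 and 27.6 CPM in the D395A libraries, against 29.2 and 27.7 CPM in the WT libraries. Its groups lay side by side without overlapping, and the log2 fold change was -0.09 ± 0.08 (SE; edgeR adjusted p = 0.367), with a 95% interval of -0.27 to 0.09. CPM did not overlap between the groups in 85.1% of all tested genes, so the lack of overlap is common here. Ifih1, the gene of MDA5, had 11 and 8 counts in D395A and 5 and 1 counts in WT, or 0.837 and 0.425 CPM in D395A and 0.374 and 0.0537 CPM in WT. A level of 3 counts was 0.159 to 0.228 CPM in these libraries, so Ifih1 was near the limit of detection. Tested without the filter on low counts, it gave a log2 fold change of 1.63 ± 0.72 (SE; edgeR adjusted p = 0.0537 over 31364 genes). It passed the filter in 3 fits that left out 1 library: the log2 fold change was 2.1 without D395A replicate 2 (adjusted p = 0.0235), 3.34 without WT replicate 1 (adjusted p = 0.0183) and 0.70 without WT replicate 2 (adjusted p = 0.507), all by edgeR.

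Mavs, the adaptor of both sensors, was almost equal in the groups, at 79.4 and 81 CPM in D395A against 79.8 and 76.8 CPM in WT. Its libraries overlap, and its log2 fold change was 0.04 ± 0.06 (SE; edgeR adjusted p = 0.629; 95% interval -0.10 to 0.17). Without WT replicate 2 the log2 fold change was -0.0025. Irf3, the transcription factor that MAVS activates, rose to 36 and 33.7 CPM in D395A cells, while WT cells had 20.8 and 22.4 CPM. Both D395A libraries lay above both WT libraries, with a log2 fold change of 0.68 ± 0.09 (SE; edgeR adjusted p = 5.46e-06), or 1.6-fold. Irf3 shares 88 exonic bases, 2.56% of its own, with Bcl2l12 on the opposite strand, and Bcl2l12 rose as well, to 29.1 and 29.98 CPM in D395A, against 22.7 and 20.5 CPM in WT (log2 fold change 0.46 ± 0.09 SE, edgeR adjusted p = 0.00031). With introns of opposite-strand genes included, 30.8% of the exonic bases of Irf3 lie inside such a gene. The counting is not stated to use strand, so reads of overlapping genes cannot be told apart, and their part in the rise of Irf3 was not tested.

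Adar, the editing enzyme that restrains sensing, had 92.1 and 101.3 CPM in D395A against 115.0 and 100.7 CPM in WT. The groups overlap, and the log2 fold change was -0.15 ± 0.08 (SE; edgeR adjusted p = 0.0846; 95% interval -0.31 to 0.01). The call depended on single libraries: the adjusted p was 0.00223 without D395A replicate 2 (log2 fold change -0.22) and 0.0351 without WT replicate 2 (log2 fold change -0.26), both by edgeR. Adar shares 1365 exonic bases, 16.8% of its own, with the acetylcholine receptor gene Chrnb2 on the opposite strand, which rose to 6.09 and 4.84 CPM in D395A, against 1.49 and 1.99 CPM in WT. With introns of opposite-strand genes included, 40.6% of the exonic bases of Adar lie inside such a gene. Eif2ak2 encodes PKR, a kinase that stops translation when it binds double-stranded RNA. It fell to 41.5 and 37.9 CPM in D395A, against 63.9 and 58.3 CPM in WT, with a log2 fold change of -0.62 ± 0.08 (SE; edgeR adjusted p = 5.28e-06). Both D395A libraries lay below both WT libraries, and 4.32% of its exonic bases are overlapped on the opposite strand, by Gm26637, a gene of 2.05 CPM or less in every library, and by n-R5s29, which had 0 counts.

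Oas1a makes the messenger oligoadenylate on binding double-stranded RNA. It fell to 1.67 and 2.55 CPM in D395A, against 21 and 19.2 CPM in WT, which is 9.17-fold lower (log2 fold change -3.20 ± 0.17 SE, edgeR adjusted p = 6.61e-10). Xaf1, an interferon-induced gene that promotes cell death, fell furthest of the members. It stood at 5.48 and 6.17 CPM in D395A and at 88.1 and 89.2 CPM in WT, or 15.1-fold lower (log2 fold change -3.91 ± 0.09 SE, edgeR adjusted p = 1.79e-13). Only 0.849% of all tested genes had a lower log2 fold change than Xaf1, and 1.56% a lower one than Oas1a. No antisense gene overlaps the exons of either. These are bulk libraries, in which fewer cells that express a gene and less RNA per cell cannot be told apart.

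Bst2 encodes tetherin, a membrane protein that holds budding virus at the cell surface and is an interferon target. It rose to 40.2 and 33.3 CPM in D395A, against 7.10 and 9.60 CPM in WT, or 4.29-fold (log2 fold change 2.1 ± 0.13 SE, edgeR adjusted p = 3.52e-09). Both D395A libraries lay far above both WT libraries, and 89.2% of all tested genes had a lower log2 fold change. The gene is on chromosome 8, where the median log2 fold change of the 565 genes that averaged 10 CPM or more was -0.42, against -0.04 over 9206 such genes of the other autosomes. The change of Bst2 had the other sign from its chromosome's median and from Oas1a. The promoters of Bst2 and Oas1a both hold overlapping GAAANNGAAA matches. The part of the chromosome or of these matches in the levels was not tested.

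Per length of exon, the order of the genes changed between the groups. In RPKM (CPM per kilobase of exon), Bst2 led in D395A at 40.7 ± 5.40, followed by Mavs at 23.96 ± 0.341, Adar at 11.9 ± 0.807, Irf3 at 10.1 ± 0.480, Eif2ak2 at 7.76 ± 0.510 and Ddx58 at 3.78 ± 0.188. Xaf1 at 1.24 ± 0.104 and Oas1a at 1.12 ± 0.329 overlapped each other, and Ifih1 was last at 0.0773 ± 0.0356. In WT, Mavs led at 23.4 ± 0.636 RPKM, before Xaf1 at 18.9 ± 0.165 and Adar at 13.3 ± 1.24. Then came Eif2ak2 at 11.9 ± 0.775, Oas1a at 10.7 ± 0.670, Bst2 at 9.25 ± 1.96, Irf3 at 6.28 ± 0.341, Ddx58 at 4.04 ± 0.153 and Ifih1 at 0.0262 ± 0.0277 RPKM. In WT the neighbours Adar and Eif2ak2 overlapped in their libraries, as did Oas1a and Bst2.

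The genes beside the members were read as a measure of their surroundings. Xaf1 lies 34406 bases from Slc13a5, a citrate transporter gene, and 30988 bases from Tekt1, a gene of cilia and flagella, and both fell. Slc13a5 had 0.913 and 0.744 CPM in D395A against 7.40 and 6.44 CPM in WT, and Tekt1 had 1.07 and 0.372 CPM in D395A against 8.67 and 8.58 CPM in WT (log2 fold changes -3.07 and -3.68, edgeR adjusted p = 9.64e-08 and 6.4e-08). Xaf1 and the nearest tested gene on either side of it on chromosome 11 were thus all low in both D395A libraries.

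The nearest tested genes of Bst2 were C430049E01Rik, at 1.22 and 1.86 CPM in D395A and 0 counts in both WT libraries, and Mvb12a, which fell (log2 fold change -0.64 ± 0.08 SE, edgeR adjusted p = 4.75e-06). Beside Ddx58, Aco1 did not pass and Topors rose with a log2 fold change of 0.22, and beside Mavs, Ap5s1 did not pass and Pank2 rose with 0.46. The genes beside Ifih1 were Dpp4, which fell with a log2 fold change of -0.86, and Gca, which did not pass. Pmvk beside Adar rose with 0.51 and Gm6548 beside Eif2ak2 fell with -1.13, and the neighbour of Irf3 other than Bcl2l12, Scaf1, rose with 0.18.

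**Figure D2:**
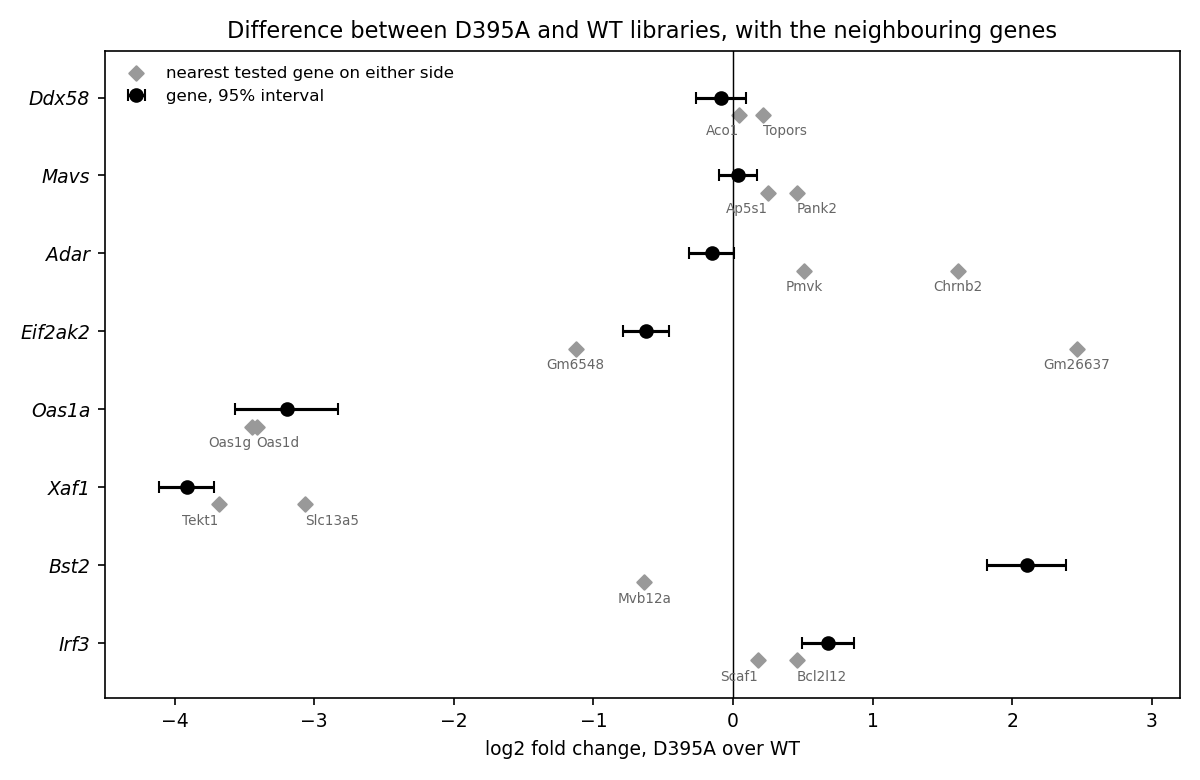
Log2 fold change (D395A over WT, horizontal axis) of the 8 tested genes, black points with 95% intervals, and of the nearest tested gene on either side, grey diamonds. C430049E01Rik, beside Bst2, is left out because both WT libraries have 0 counts. The neighbours of Xaf1 and Oas1a lie on the same low side, while Mvb12a lies opposite Bst2.

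Oas1a sits in a cluster of related genes, and the cluster went the same way. The 10 genes Oas1a to Oas1h, Oas2 and Oas3 lie on chromosome 5 between 120730333 and 120921652, and together they had 4.26 and 4.47 CPM in D395A against 41.7 and 42.0 CPM in WT. All 7 of them that could be tested fell. Without Oas1a, the OAS list held 6 of these 7 together with Oasl1 and Oasl2, and the median log2 fold change of these 8 was -3.43. The nearest tested genes of Oas1a were Oas1d, at 0.152 and 0.106 CPM in D395A against 1.49 and 1.34 CPM in WT, and Oas1g. Oas1g had 1.14 and 0.957 CPM in D395A against 10.2 and 12.3 CPM in WT (10.9-fold lower). Oas1c had 0.304 and 0.106 CPM in D395A against 3.66 and 3.54 CPM in WT. Of its exonic bases, 9.44% are overlapped by exons on the opposite strand, and 60.7% lie inside an opposite-strand gene with introns included. Oas3 was left with 1 and 0 counts in D395A, against 26 and 35 counts in WT. These genes are similar in sequence, so the counting may have shared out reads among them. The cluster was summed after its values had been seen. The related genes Oasl1 and Oasl2 rose instead, Oasl1 to 10.7 and 11.3 CPM in D395A, against 2.99 and 3.00 CPM in WT, and Oasl2 to 4.64 and 3.56 CPM, against 0.897 and 0.268 CPM.

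Among the other 133 genes of 9 pathway lists, chosen by role, 97 were tested, of which 44 rose, 32 fell and 21 were not called. That is beside 36.8% of all tested genes called higher and 34.3% lower, and the median log2 fold change of these genes was 0.01. The ligands, Isg15, Ifit1 and Irf7, usual readouts of an interferon response, had at most 14 counts in any library. None of the 11 interferon ligand genes entered the test. Ifnb1, Ifna1, Ifna2, Ifna4, Ifna5, Ifne, Ifnz, Ifng, Ifnl2 and Ifnl3 had 0 counts in all 4 libraries, which allows up to 0.159 to 0.228 CPM per library (3 counts, counting error only). Ifnk, an interferon of the epidermis, had 5 and 1 counts in D395A and 0 in both WT libraries. With introns included, 100% of its exonic bases lie inside an opposite-strand gene, so these reads cannot be assigned to Ifnk. Isg15, a ubiquitin-like protein that interferon induces strongly, had 0 and 3 counts in D395A and 1 and 0 in WT. Ifit1 had 1 and 2 counts in D395A and 0 in both WT libraries, and Irf7, the factor that amplifies interferon production, had 5 and 14 counts in D395A and 1 and 1 in WT.

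Of 34 interferon-stimulated genes 20 were tested, and 11 rose, 4 fell and 5 were not called. At 2-fold or more, 9 rose and 1 fell, beside 20% and 11.9% of all tested genes. Among those 9, Herc6, Cmpk2 and Gbp2 had at most 9 counts in either WT library. Of abundant genes of the list, Ifitm1 rose with a log2 fold change of 0.18, Pml fell with -0.15 and Ifitm2 was not called. Of the 15 tested genes of this list with no opposite-strand overlap, 10 rose and 1 fell, beside 32.3% and 37.1% of all such genes. This list holds neither the OAS genes nor the members, so its counts depend on how the lists were cut. Of the 6 tested genes of the OAS list with no such overlap, 1 rose and 5 fell. Of the 5 such members, 1 rose and 2 fell. In the interferon-stimulated list the gene that fell furthest, named after its value was seen, was Sp100, a nuclear body gene. It had 0.609 and 0.372 CPM in D395A against 2.24 and 1.99 CPM in WT (4.39-fold lower). The 14 genes that were not tested had at most 13 counts in any library. Lgals3bp, a secreted glycoprotein gene, rose to 8.37 and 9.20 CPM in D395A, against 0.598 and 0.59 CPM in WT (14.7-fold), and the interferon-induced GTPase gene Igtp rose to 9.13 and 10.0 CPM, against 2.47 and 2.63 CPM. Parp12 rose to 23.7 and 22.8 CPM in D395A, against 5.90 and 8.21 CPM in WT. Ifitm3, which blocks virus entry at the endosome, rose 1.6-fold to 107 ± 0.930 CPM in D395A, against 66.9 ± 1.03 CPM in WT.

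The list of antigen presentation by MHC class I, also an interferon target, had 8 tested genes of 10, of which 5 rose and 1 fell. Tap1, a peptide transporter subunit, rose 12.2-fold to 24.7 and 26.4 CPM in D395A, against 1.94 and 2.20 CPM in WT. H2-K1 rose to 41.5 ± 1.21 CPM in D395A, against 16.5 ± 0.958 CPM in WT, and H2-D1 rose 2.06-fold, though reads may be shared between such similar genes. Tapbp, which loads peptide, fell to 36.6 ± 2.40 CPM in D395A, against 52.1 ± 2.41 CPM in WT, and 20.2% of its exonic bases are overlapped on the opposite strand. Of the 4 tested genes of this list with no such overlap, 2 rose.

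Among 16 further sensors and binding proteins of double-stranded RNA, 14 were tested, and 6 rose, 3 fell and 5 were not called. Dhx58 encodes LGP2, the relative of RIG-I and MDA5, and rose to 2.89 and 2.55 CPM in D395A, against 1.20 and 1.23 CPM in WT (edgeR adjusted p = 0.00311). Tlr3, the endosomal sensor, rose to 0.761 and 0.744 CPM in D395A, against 0.0747 and 0.107 CPM in WT, on 1 and 2 counts in WT. Both Dhx58 and Tlr3 have opposite-strand overlap, at 4.31% and 7.32% of exonic bases, or 35.3% and 10.9% with introns of the opposite-strand genes included. Stau2, of the Staufen family, rose 3.16-fold and Prkra, the activator of PKR, 1.64-fold, while the antiviral zinc finger gene Zc3hav1 fell 1.63-fold and the helicase gene Dhx9 1.37-fold.

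Of 21 adaptors, kinases and transcription factors, 20 were tested, and 10 rose, 7 fell and 3 were not called. Traf3, which couples MAVS to its kinases, rose to 71.1 ± 4.88 CPM in D395A, against 23.9 ± 1.53 CPM in WT, and Irf5, with 14.1% overlap, rose to 15.5 ± 2.42 CPM, against 2.33 ± 0.122 CPM. The NF-κB subunit gene Rela rose 1.72-fold. Trim25, the ubiquitin ligase that acts on RIG-I, fell to 137 ± 9.36 CPM in D395A, against 229 ± 8.26 CPM in WT.

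Receptors for the interferon types differed. Of the type I receptor genes, Ifnar1 rose with a log2 fold change of 0.31 (edgeR adjusted p = 0.00102) and Ifnar2, at -0.01, was not called. The interferon gamma receptor genes rose, Ifngr1 to 22.6 and 20.8 CPM in D395A, against 5.90 and 5.42 CPM in WT, and Ifngr2 to 12.3 and 10.6 CPM, against 2.69 and 2.58 CPM. The interferon lambda receptor gene Ifnlr1 fell to 6.85 and 7.28 CPM in D395A, against 19.4 and 18.9 CPM in WT, and the kinase gene Jak2 rose 2.07-fold. Of the 12 genes of this list, all tested, 5 rose, 3 fell and 4 were not called.

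Of 11 negative regulators and enzymes that clear nucleic acids, 9 were tested, and 4 rose and 4 fell. Socs1, an inhibitor of interferon signalling, rose to 10.0 and 6.91 CPM in D395A, against 3.44 and 3.11 CPM in WT, and Nlrx1 (11.9% overlap) rose 4.79-fold. Rnaseh2a and Rnaseh2b, subunits of the nuclease that removes RNA from DNA, fell to 68.1 ± 4.68 and 35.7 ± 3.79 CPM in D395A, against 111 ± 2.45 and 67.7 ± 0.419 CPM in WT. Rnaseh2a has 5.04% overlap and lies on chromosome 8, where the median log2 fold change of genes averaging 10 CPM or more was -0.42. The part of the chromosome in its fall was not tested. In the small list around eIF2, the target of PKR, 1 of 6 genes rose and 4 fell. The kinase gene Eif2ak4 rose 1.37-fold, and Eif2ak1 (11.6% overlap, or 30.7% with introns included), Eif2s1 and Ppp1r15a fell 1.42-fold, 1.25-fold and 1.82-fold.

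**Figure D3:**
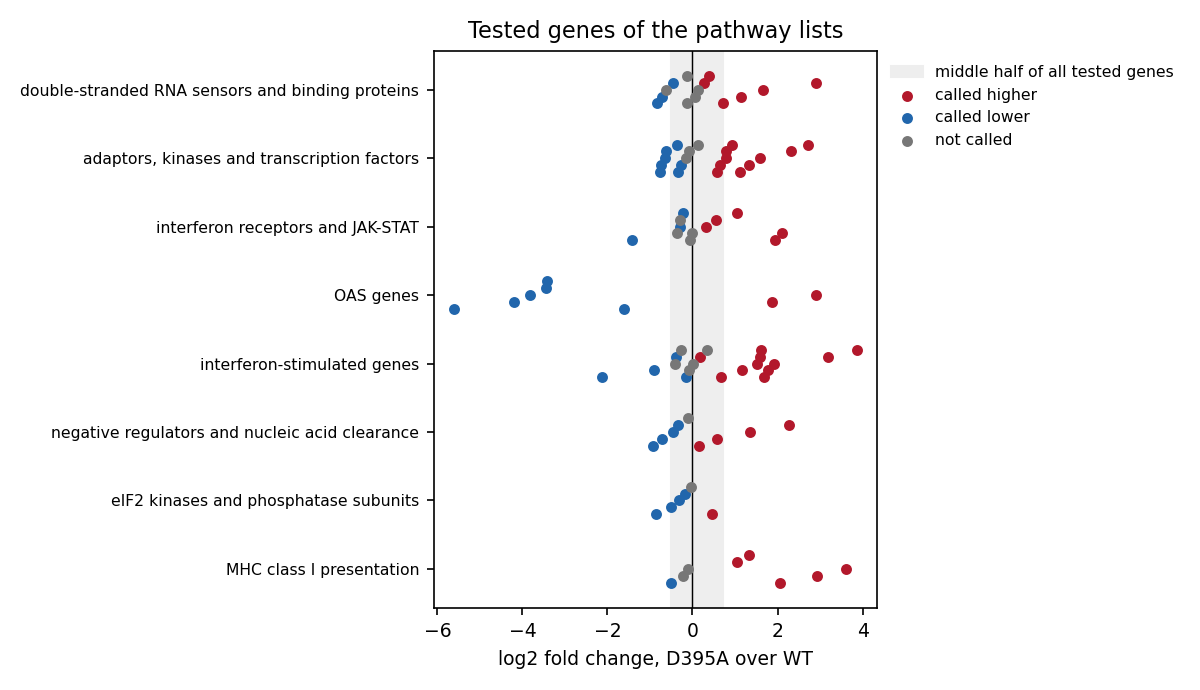
Log2 fold change (D395A over WT, horizontal axis) of each tested gene of 8 pathway lists, red for called higher, blue for called lower and grey for not called, over the interquartile range of all 17778 tested genes as a grey band. Genes of the OAS list fall on either side of the band, the Oas1, Oas2 and Oas3 genes at the left and Oasl1 and Oasl2 at the right.

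Peaks of m6A were then read in the gene bodies of the 9 genes, counting an overlap of 1 base or more. Each genotype has 1 list, so there is no replicate and no test, and each fold enrichment, p and q is the authors' value of that peak. The D395A samples are 1 m6A precipitate and 1 input, and the WT samples are 2 precipitates and 2 inputs. Peak numbers of the lists are therefore not like for like. In the D395A list 2 of the 9 genes held a peak (5 peaks), and in the WT list 7 of the 9 did (14 peaks). Among all tested genes, 52.6% held a D395A peak and 66.5% a WT peak. The lists differ in their limits. The largest p in the D395A list was 0.0499 (38823 peaks, 5275 of them with q below 0.05), and the largest q in the WT list was 0.049 (48445 peaks). With q below 0.05 in both, the D395A list had 0 peaks in the 9 genes and 17.3% of tested genes held a D395A peak, while the WT list kept its 14.

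**Figure D4:**
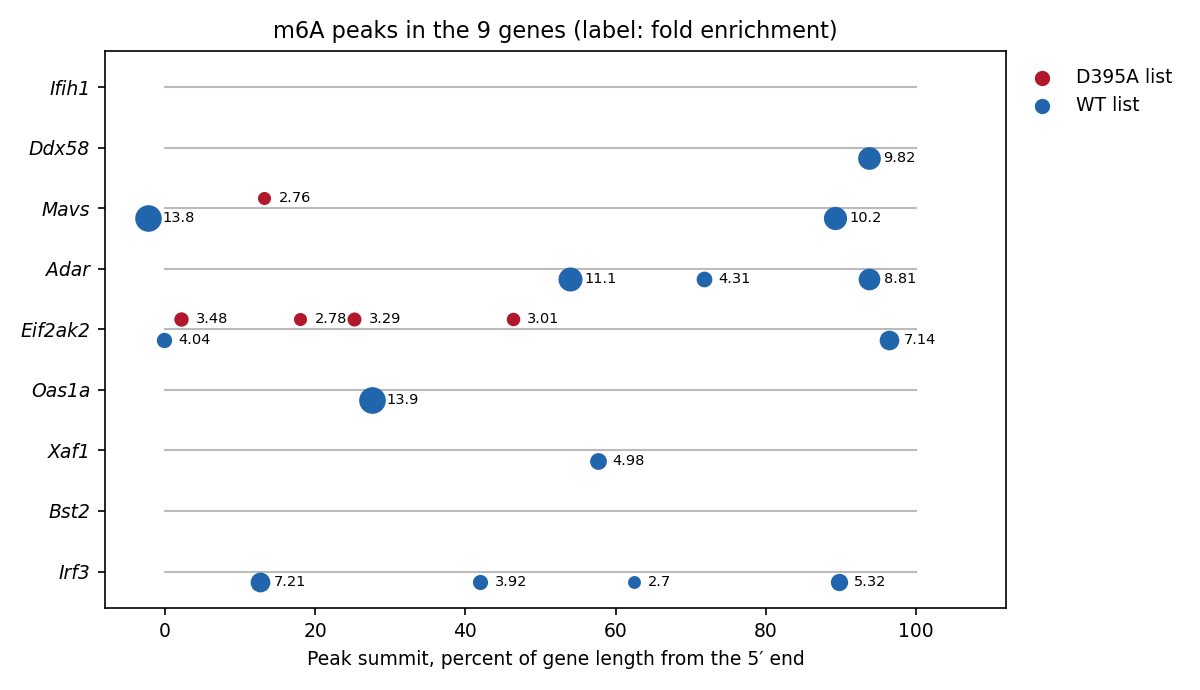
Summits of the m6A peaks in the 9 genes, placed along each gene as a percentage of its length from the 5′ end, D395A list in red above the line and WT list in blue below it. Point size and label give the authors' fold enrichment, from 2.76 to 3.48 in the D395A list and from 2.7 to 13.9 in the WT list. Values under 0 lie before the annotated start.

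In the D395A list, Eif2ak2 held 4 peaks with fold enrichments of 2.78 to 3.48 and q of 0.0617 to 0.752, of which 2 lay wholly in introns. The strongest, at its 5′ end (chr17:78881644-78882559), was the single D395A peak in the 9 genes that overlapped a WT peak within the gene. Both this D395A peak and that WT peak also lie in Gm26637, on the opposite strand. Mavs held 1 D395A peak in an intron (chr2:131235324-131236003, fold 2.76, q = 0.785). The median fold enrichment of the whole D395A list was 2.66, against 6.31 in the WT list.

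In the WT list, 5 genes had their last exon under a peak: Ddx58, Mavs, Adar, Eif2ak2 and Irf3. Adar had the most significant peak of the 9 genes, over exon block 3 from its 5′ end (chr3:89734293-89736602, fold 11.1, q = 4.53e-199), and a long peak over its last 3 exon blocks (chr3:89750055-89753276, fold 8.81) that also lies in Chrnb2. Mavs had peaks at its start (chr2:131233499-131235007, fold 13.8) and over its last 2 exon blocks (chr2:131245123-131247090, fold 10.2). Ddx58 had a single peak (chr4:40205405-40206326, fold 9.82, q = 6.45e-54), and Eif2ak2 had one over its last exon (chr17:78850674-78855109, fold 7.14) that runs on into Gm6548. A D395A peak overlaps that WT peak outside Eif2ak2. Irf3 had 4 WT peaks with folds of 2.7 to 7.21, the first of them (chr7:44997632-44998793) shared with Bcl2l12.

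The genes that fell furthest had 1 WT peak each. Oas1a had a peak wholly within introns (chr5:120902941-120904837, fold 13.9, q = 1.92e-67), higher in fold than 88.7% of the WT list. Xaf1 had a short peak of 307 bases within an exon (chr11:72308458-72308764, fold 4.98, q = 4.67e-08), higher than 32.9% of that list. Bst2 and Ifih1 had no peak in either list, and 21.2% of all tested genes had none. Mavs and Eif2ak2 had peaks in both lists, as did 40.3% of all tested genes. Another 5 genes, Ddx58, Adar, Oas1a, Xaf1 and Irf3, had peaks in the WT list alone, as did 26.2% of all tested genes, and their RNA went both ways: Oas1a and Xaf1 fell, Irf3 rose, and Ddx58 and Adar did not pass. Of the 4651 tested genes with peaks in the WT list alone, 43% were higher and 29.2% lower. In RNA-seq, Xaf1 had 72 and 116 counts and Oas1a 22 and 48 counts in D395A, and the part of this lower RNA level in the lack of a D395A peak was not tested. The peaks carry no strand, so those shared with another gene cannot be assigned.

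For Xaf1 and Bst2, the members that fell and rose most, the tested genes of most similar profile over the 4 libraries were found by distance between centred log2(CPM + 0.5) values. For Xaf1 they were Mapk8ip2, Slc30a2 and C330024D21Rik, at distances of 0.0484, 0.0728 and 0.0839. For Bst2 they were Irak1bp1, Sh3bp5 and Gm12353, at 0.049, 0.0694 and 0.0751. With 4 libraries in 2 groups this describes only the size of change in log2(CPM + 0.5), where the added 0.5 shrinks changes at low CPM. The edgeR log2 fold changes of Mapk8ip2, Slc30a2 and C330024D21Rik were -4.72, -3.97 and -4.02. Those of Irak1bp1, Sh3bp5 and Gm12353 were 2.12, 2.85 and 4.33. Mapk8ip2 had 0.456 and 0.585 CPM in D395A, and Gm12353 had 0 and 0.161 CPM in WT. All 6 genes lie on chromosomes other than that of their member.

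Several features of the whole series bear on these values. The libraries held 12743677 and 18151353 counts in D395A and 13953069 and 19246342 counts in WT. Mettl3 RNA was at 30.6 and 33.9 CPM in D395A and 36.2 and 35.5 CPM in WT, which does not check a substitution within the protein. Genes that share over 25% of exonic bases with the opposite strand had a median log2 fold change of 1.35 (1197 genes), against -0.07 in 12377 genes with none. The 8 embryonic stem cell markers were present in every library, summing to 1933 to 1986 CPM in D395A and 3351 to 3467 CPM in WT, with 1 higher and 6 lower. Of 8 immune cell markers, 4 were tested, with 1 higher and 3 lower, at 11.3 to 12.6 CPM in D395A and 41.5 to 45.9 CPM in WT in sum. The defining marker Ptprc had 0 or 1 count in every library, Adgre1 at most 1 and Lyz2 at most 2. The 3 that fell were present in WT, Cd68 with 396 and 602 counts, Spi1 with 96 and 156 and Cd3e with 63 and 94. Csf1r rose, with 37 and 27 counts in D395A against 0 and 1 in WT. Of 8 fibroblast markers, 6 were tested, with 1 higher and 3 lower, at 15.9 to 16.1 CPM in D395A and 28.5 to 28.6 CPM in WT in sum. The one that rose, Dcn, had 28 and 31 counts in D395A and 0 in both WT libraries, and the part of these marker differences in the results was not tested.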

How the data were processed

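Gene counts were used as deposited by the authors, unnormalized, with exon coordinates, strand and exonic length per the file headers. Per the submitters' processing notes the tools included HISAT2 2.1.0, featureCounts 1.6.3 and MACS2 2.1.1 with build mm10 for mouse, with no role for each. No source used here gives the strand setting. A column whose name differs in 1 character from D395A was taken as D395A replicate 1. The m6A lists are deposited in the MACS2 narrowPeak layout, with fold enrichment, -log10 p, -log10 q and a score that, as deposited, is 10 times the -log10 p (D395A) or -log10 q (WT). The WT list was made from 2 m6A precipitates and their 2 inputs, and no source used here says how they were combined. For D395A there is 1 precipitate and 1 input. Of 56 samples, 46 were not used.

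Counts were filtered with filterByExpr (17778 of 52459 genes kept), scaled with TMM and tested with edgeR 4.0.16 in R 4.3.3 (quasi-likelihood, Benjamini-Hochberg, threshold 0.05). The fit was tested on simulated data in which few genes changed and both groups had the same spread. It was not tested on data in which most genes are called, as here. The spread between libraries exceeded counting error (chi-square per degree of freedom 6.32 in D395A and 2.64 in WT). Printed intervals come from this fit and include that spread, while the floors of 3 counts cover counting error only. Overlaps were computed with bedtools 2.31.1 and figures drawn with matplotlib 3.10.9. From each list up to 4 called genes averaging 1 CPM or more were named by smallest adjusted p, and the usual interferon readouts whatever their value, of which some are not reported here. The members and lists were chosen with earlier results of these data known. For each member its opposite-strand and nearest tested genes were named, and for Xaf1 and Bst2 the 3 most similar genes. Oas3, Sp100, Herc6, Cmpk2, Gbp2, Ifitm1, Ifitm2, Pml, Ifnar1, Ifnar2 and the sum over the Oas cluster were added after values were seen. Alternatives are given in the closing section, among them DESeq2 1.42.0 and limma 3.58.1.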

Additional observations from a re-analysis of the deposited data

How the results depend on the processing

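Eif2ak2, Oas1a, Xaf1, Bst2 and Irf3 kept their direction and their call in every alternative that tested them, with log2 fold changes of -0.70 to -0.55, -3.57 to -2.94, -4.01 to -3.81, 1.92 to 2.35 and 0.62 to 0.73 over DESeq2 and upper quartile scaling, other count filters, the DESeq2 Wald test, limma-voom, the replicate block, each library left out, and the overlapped genes or chromosomes 8 and Y left out. Mavs lay between -0.0025 (without WT replicate 2) and 0.0823 with 1 library left out, in fits that take the spread of the single library from the pair it is set against. Without genes overlapped on the opposite strand, 4277 genes were higher and 4248 lower of 12341 tested, 1 member was higher and 2 lower of 5, and 33 pathway genes were higher and 17 lower of 66; without chromosomes 8 and Y, which takes out Bst2, 1 member was higher. In the D395A list, peaks over exons were 2 in 1 member, and peaks with q under 0.05 or under 0.001 were 0 in 0 members. The shared replicate numbers had no meaning in the labels (correlation of deviations 0.0337), and with the replicate block 6656 genes were higher and 6239 lower, with Adar called at an adjusted p of 0.0493 in edgeR. With 2 libraries per group the spread rests on few values, and low-count genes such as Ifih1, Isg15 and Ifit1 are limited by depth.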
